A study of Phyllostachys violascens with 6 samples.

Results

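LHCB1 (Cluster-4806.23561) and PvLhcb1.2 (Cluster-4806.23667) are 2 of the 63776 unigenes, the assembled transcript groups, counted in internodes of the bamboo Phyllostachys violascens cv. Viridisulcata. Both were found by their identifiers, and both passed the filter on low counts together with 31936 unigenes in all. They were chosen by the values described here: the study's KEGG table lists them under antenna proteins among unigenes that it had picked for a difference between sulcus and culm in these same libraries. The tissue difference of either unigene is therefore given as a description and carries no test.

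RNA came from the longest internodes, from their green groove (sulcus) and from the yellow culm around it. Colours and tissues are those of the sample labels; the study's text in 1 place gives the colours the other way round, so every direction here rests on the labels. The plants were wild type by label with no treatment named, with 3 libraries of each tissue numbered 1 to 3. The study's methods call these biological replicates of bamboos of uniform size, and the sources used here do not say whether a sulcus and a culm library with the same number came from 1 plant. The libraries held between 16405396 and 22505338 estimated counts. Values are CPM, the count divided by the total of its library and multiplied by 1000000, and log2 differences are culm minus sulcus, so a negative value is lower in the culm.

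LHCB proteins bind chlorophyll a and b and form the peripheral antenna of photosystem II, light-harvesting complex II, which passes excitation energy to the reaction centre. Their genes lie in the nucleus, and the proteins are made in the cytosol and imported into the chloroplast. In flowering plants their transcripts are known to be abundant in green tissue and to depend on light and on the state of the chloroplast. Reaction centre and core proteins such as PsbA and PsaA are instead encoded in the plastid genome.

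Among the antenna unigenes, 1 primer is shared. The primers for qRT-PCR of PvLhcb1.2 and of PvLhcb2 (Cluster-4806.23560), a unigene of the second major antenna type, are shown because 1 oligonucleotide, in capitals, is listed for both assays, as forward primer in the first and as reverse primer in the second.
PvLhcb1.2 forward: CTCCATGTTCGGCTTCTTCG
PvLhcb1.2 reverse: tgtcccatactcaacgcact
PvLhcb2 forward: tgcagcatcatcaatccacg
PvLhcb2 reverse: CTCCATGTTCGGCTTCTTCG
No primer for LHCB1 is in that list. The deposited counts of LHCB1, PvLhcb1.2, PvLhcb2 and PvLhcb1.1 (Cluster-4806.24156) held fractions in 6 of 6 libraries each, as did those of 8.77% of all tested unigenes, so reads may have been divided among similar unigenes. Their single values are uncertain to that extent, and the sum of LHCB1 and PvLhcb1.2 is given beside them. That sum does not cover reads divided with PvLhcb1.1 or PvLhcb2. The study's annotation gives LHCB1 the KEGG name of a light-harvesting protein and a Swiss-Prot match to a rice chlorophyll a-b binding protein, but also a phosphoglycerate mutase domain. PvLhcb1.2 matches a chlorophyll a-b binding protein of Phyllostachys edulis.

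PvLhcb1.2, a unigene of the LHCB1 type, the main component of light-harvesting complex II, had 430, 331 and 166 CPM in sulcus replicates 1, 2 and 3. In culm replicates 1, 2 and 3 it had 60.3, 85.2 and 114 CPM. All sulcus libraries lay above all culm libraries, with replicate 1 highest in the sulcus and lowest in the culm. The means were 309 ± 134 CPM in the sulcus and 86.6 ± 27.1 in the culm (SD, n = 3 each). From edgeR, the log2 fold change was −1.84 (standard error 0.41), which is 3.58-fold more in the sulcus.

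LHCB1, named here by its KEGG symbol, had counts of 688, 555 and 279 in sulcus replicates 1, 2 and 3, or 41.9, 28.6 and 15.1 CPM. In culm replicates 1, 2 and 3 the counts were 73, 102 and 262, or 3.86, 5.11 and 11.6 CPM. The tissues again did not overlap, but the lowest sulcus library, replicate 3, lay close to the highest culm library, also replicate 3. The 95% intervals of these neighbours, which cover counting error only, ran from 13.4 to 17.0 and from 10.3 to 13.1 CPM. In the culm, the intervals of replicates 1 (3.03 to 4.86 CPM) and 2 (4.17 to 6.21 CPM) overlapped. The means were 28.5 ± 13.4 CPM in the sulcus and 6.87 ± 4.18 in the culm (SD, n = 3 each). The log2 fold change by edgeR was −2.07 with a standard error of 0.52, or 4.19-fold more in the sulcus.

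As a share of the library, the summed counts of LHCB1 and PvLhcb1.2 took 0.0472%, 0.0360% and 0.0181% in sulcus replicates 1, 2 and 3. They took 0.00641%, 0.00903% and 0.0126% in culm replicates 1, 2 and 3. The sum had 338 ± 147 CPM in the sulcus and 93.5 ± 31.1 in the culm (SD, n = 3 each), and its log2 fold change was −1.86 with a standard error of 0.41. In bulk RNA, fewer green cells and less antenna RNA per cell cannot be told apart.

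**Figure D1:**
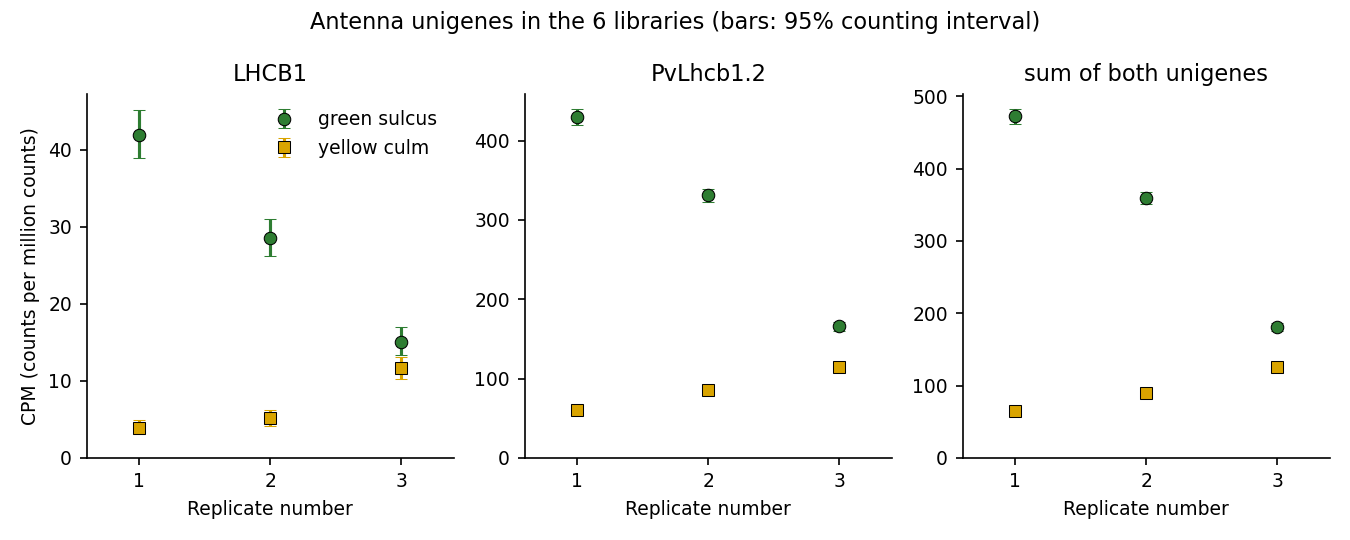
Level in CPM (vertical axes, starting at 0) of LHCB1, PvLhcb1.2 and their sum in each green sulcus (circles) and yellow culm (squares) library, by replicate number. Bars are 95% intervals for counting error only; the tissues are farthest apart in replicate 1 (472 against 64.1 CPM for the sum) and closest in replicate 3 (181 against 126 CPM).

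A CPM in every sulcus library above every culm library was found for 2.22% of the tested unigenes. That contrast chose LHCB1 and PvLhcb1.2, so nothing is read from their place in it. For the same contrast, edgeR's quasi-likelihood test (threshold: log2 fold change past 1 in size, adjusted p below 0.05) called 0 unigenes lower in the culm, or 0% of those tested. At an unadjusted p under 0.05, 168 unigenes (0.526%) were lower by edgeR. When edgeR took the replicate number as a block, 19 were called lower (0.0595%), and with DESeq2 18 (0.0564%). The study's methods name DESeq2 with these thresholds. For both directions together, the study reports many more genes than any of these tests called here. With the replicate block, the log2 fold changes were −2.04 (standard error 0.46) for LHCB1 and −1.78 (standard error 0.35) for PvLhcb1.2.

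The tissue difference varied more between same-numbered pairs than it did between the unigenes. PvLhcb1.2 was 7.14-fold higher in the sulcus in pair 1 (95% counting interval 6.70 to 7.60). In pair 2 it was 3.88-fold higher (3.68 to 4.10) and in pair 3 1.45-fold (1.37 to 1.53). For LHCB1 the sulcus exceeded the culm 10.9-fold in pair 1 (8.51 to 14.0). The excess of LHCB1 was 5.59-fold in pair 2 (4.51 to 6.96) and 1.29-fold in pair 3 (1.09 to 1.54). Counting intervals of the 3 pairs did not overlap for either unigene. For the sum, the sulcus exceeded the culm by 408 CPM in pair 1, by 269 in pair 2 and by 54.7 in pair 3. Each pair holds 1 library per tissue, so no residual is left and a change of the difference between pairs was not tested.

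**Figure D2:**
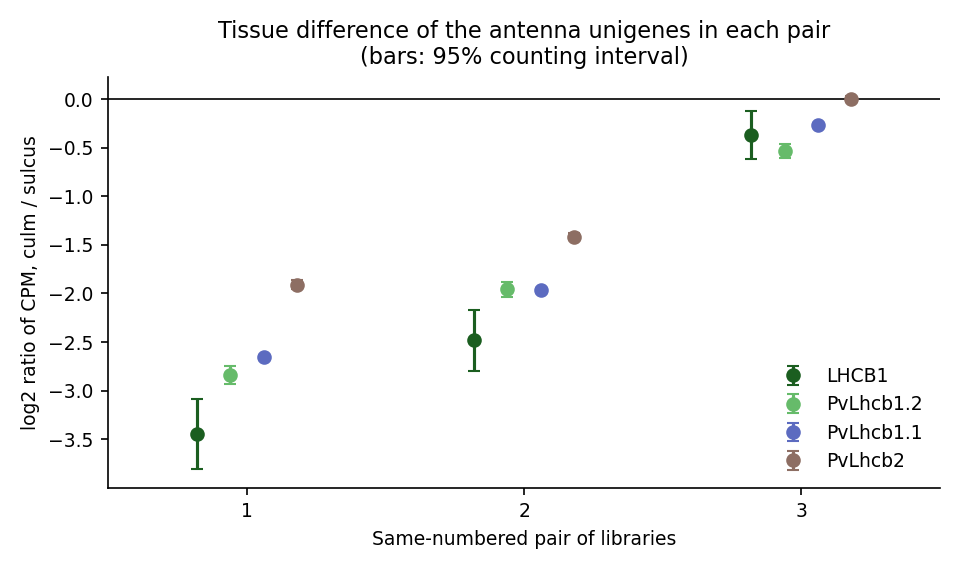
The log2 ratio of CPM, culm over sulcus (vertical axis; 0 is no difference), in each same-numbered pair for the 4 antenna unigenes, with 95% counting intervals. LHCB1 goes from −3.44 in pair 1 to −0.37 in pair 3 and PvLhcb1.2 from −2.84 to −0.53; PvLhcb2 sits at 0.0027 in pair 3.

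Both tissues contributed to the narrow difference of pair 3. The sulcus level of PvLhcb1.2 was 2.60 times as high in replicate 1 as in replicate 3, and its culm level 1.90 times as high in replicate 3 as in replicate 1. For LHCB1 these ratios were 2.78 and 3.02. The coefficient of variation was 43.2% in the sulcus and 31.3% in the culm for PvLhcb1.2, and 47.1% and 60.9% for LHCB1. In the sulcus replicate 1 was highest and replicate 3 lowest, and in the culm the reverse held, for LHCB1 and PvLhcb1.2 and for 1.07% of the tested unigenes, or 342 in all. The numbers name libraries and have no order in time.

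On log2 CPM scaled by TMM, the tissue difference of LHCB1 spanned 3.01 over the 3 pairs and that of PvLhcb1.2 2.27. The median span of all tested unigenes was 0.54, and 99.3% of them had a smaller span than LHCB1 and 97.7% a smaller one than PvLhcb1.2. Among tested unigenes within 0.5 log2 CPM of the same mean level, these shares were 99.8% of 4216 for LHCB1 and 99.8% of 996 for PvLhcb1.2. The unigenes of like level were not matched for the size of their tissue difference, and a large difference leaves more room for a wide span. These shares describe unigenes that were chosen on the same libraries and are no test.

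**Figure D3:**
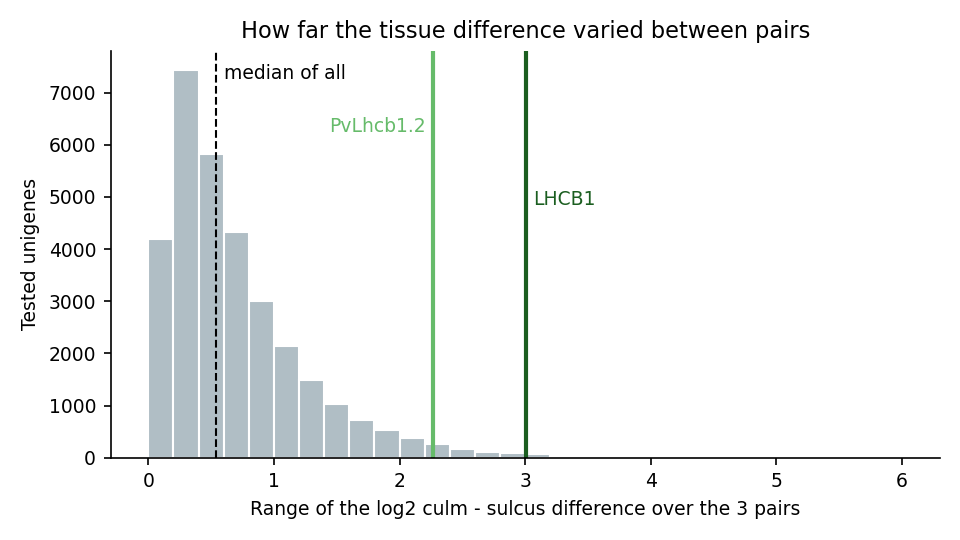
Number of tested unigenes (vertical axis) by the span of their log2 tissue difference over the 3 pairs (horizontal axis, TMM-scaled log2 CPM, bins of 0.2). Lines mark the median of all tested unigenes at 0.54, PvLhcb1.2 at 2.27 and LHCB1 at 3.01.

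Averaged over the tissues, LHCB1 and PvLhcb1.2 differed little between replicate numbers. Replicate 3 differed from replicate 1 by −0.084 on the log2 scale for LHCB1 and by −0.26 for PvLhcb1.2, where the median size over all tested unigenes was 0.38. Of the sum of squares of log2 CPM, 0.0483% lay between replicate numbers for LHCB1 and 2.21% for PvLhcb1.2, against a median of 71.8% over the tested unigenes. Between tissues lay 73.5% for LHCB1 and 76.7% for PvLhcb1.2, against a median of 5.84%. The shares of a unigene add up to the whole. A choice on the tissue contrast therefore favours a small share between replicate numbers, and nothing is read from that share. The sulcus and culm levels of both unigenes went opposite ways between replicates 1 and 3, which leaves the means of the pairs close together. With tissue as a term, edgeR's quasi-likelihood test called 9665 of all tested unigenes, or 30.3%, between replicate numbers at an adjusted p under 0.05. Within the sulcus, the range of log2 CPM of LHCB1 was above that of 85.4% of tested unigenes, and within the culm of 85.0%. For PvLhcb1.2 these shares were 83.3% and 62.6%. A tissue contrast with no block weighs the tissue difference against the spread within a tissue, which includes differences between replicate numbers. The place of LHCB1 and PvLhcb1.2 in that test is therefore not independent of their choice, and no p is given for them.

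The make-up of the antenna counts also shifted between libraries. LHCB1 made up 8.88% (95% exact binomial interval 8.26 to 9.54), 7.94% (7.32 to 8.60) and 8.34% (7.42 to 9.32) of the counts of both unigenes in sulcus replicates 1, 2 and 3. It made up 6.03% (4.75 to 7.52), 5.66% (4.64 to 6.83) and 9.24% (8.19 to 10.4) in culm replicates 1, 2 and 3. Culm replicate 2 lay below every sulcus library beyond counting error, culm replicate 1 overlapped with sulcus replicates 2 and 3, and the interval of culm replicate 3 overlapped with those of all 3 sulcus libraries. Unigene length was not used, so this is no comparison of transcript levels between LHCB1 and PvLhcb1.2. Over the 6 libraries the log2 CPM of LHCB1 and PvLhcb1.2 correlated at r = 0.983, a description over libraries that share replicate numbers.

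The same pattern appeared in the other antenna unigenes, which come from the same list and contrast. Their counts too held fractions, so reads may have been divided with LHCB1 and PvLhcb1.2. The part of such sharing in the common pattern was not tested. PvLhcb1.1, a further unigene of the LHCB1 type, had 4218, 3432 and 1838 CPM in sulcus replicates 1, 2 and 3 and 669, 877 and 1524 in culm replicates 1, 2 and 3. It was 6.30-fold higher in the sulcus in pair 1 and 1.21-fold in pair 3. PvLhcb2, of the LHCB2 type, had 1064, 1040 and 704 CPM in the sulcus and 283, 390 and 706 in the culm. In pair 3 its log2 ratio was 0.0027 (95% counting interval −0.031 to 0.036), and −0.052 when scaled by TMM, so its direction there depends on the scaling. In all 4 of the 4 antenna unigenes the TMM-scaled difference was largest in size in pair 1 and smallest in pair 3, as it was in 23.3% of all tested unigenes. The sum of these 4 unigenes was 5754 CPM in sulcus replicate 1 and 1017 in culm replicate 1, and 2723 and 2356 CPM in replicate 3. LHCB1 and PvLhcb1.2 together made up between 5.35% (culm replicate 3) and 8.21% (sulcus replicate 1) of that sum.

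Plastid-encoded genes of photosynthesis, also listed by the study from this contrast, had a median difference in pair 3 well below 0. The Photosynthesis entry of the KEGG table holds 8 unigenes, among them psaA (photosystem I core), psbB and psbC (inner antenna of photosystem II), petA (cytochrome f) and atpA (ATP synthase). All 8 were lower in the culm in 3 of 3 pairs, as were 13.6% of all tested unigenes. Their median log2 difference was −2.36 in pair 1, −1.60 in pair 2 and −1.92 in pair 3, where the 4 antenna unigenes had −2.77, −1.88 and −0.37 and all tested unigenes 0.0033, 0.036 and 0.0014. Of these 8, psbB had the smallest span over the pairs, with 17.1, 16.3 and 17.9 CPM in sulcus replicates 1, 2 and 3 and 6.71, 6.97 and 7.82 in culm replicates 1, 2 and 3. The largest span, 2.83, was that of psbA, with log2 differences of −2.58, −0.79 and −3.62 in pairs 1, 2 and 3. The counts of psbA in culm replicates 1, 2 and 3 were 6, 21 and 23. In sulcus replicates 1, 2 and 3 they were 39, 39 and 245, so its value in pair 3 goes with 1 high sulcus library. The narrowest difference was that of pair 3 in 4 of these 8 unigenes, against 40.2% of all tested unigenes. These 4 included psbK, with −3.20, −2.70 and −1.88, and psaA, with −1.50, −1.54 and −0.69. As in LHCB1 and PvLhcb1.2, replicate 1 of psbK was highest in the sulcus and lowest in the culm. Among 9 other plastid genes (matK, rbcL, rps4, rps7, rpl33 and ndh genes) 8 were tested, and 8 of those were lower in the culm in 3 of 3 pairs, with medians of −2.54, −2.21 and −2.17 in pairs 1, 2 and 3. The untested one, ndhB, was counted 6, 8 and 4 times in sulcus replicates 1, 2 and 3 and 0 times in every culm library. Some tested plastid genes also had low counts in the culm, so their log2 differences are uncertain. In culm replicates 1, 2 and 3, rps7 had 5, 1 and 1 counts, rps4 8, 6 and 11 and petA 13, 10 and 17. The Photosynthesis entry summed to 166, 154 and 239 CPM in sulcus replicates 1, 2 and 3, and the antenna unigenes to 5754, 4832 and 2723. How fully the libraries captured plastid RNA was not tested, so the plastid values may not stand for transcript levels. With 3 pairs, whether the antenna unigenes differ from the plastid genes in pair 3 was not tested.

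**Figure D4:**
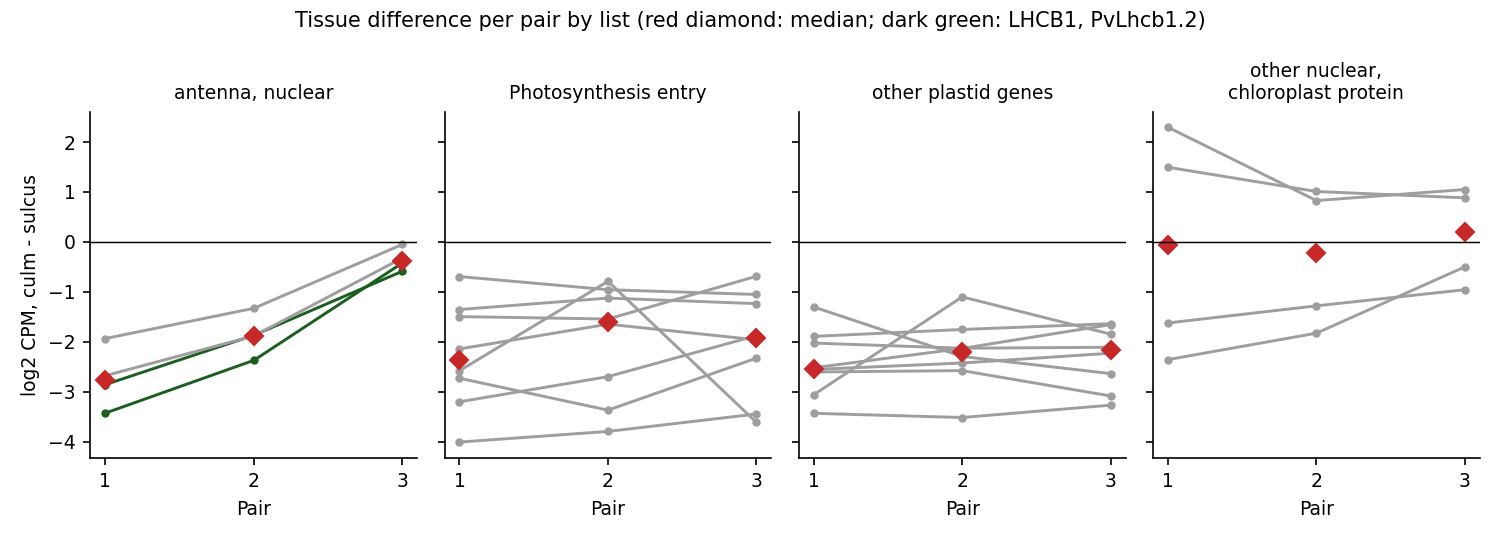
The log2 difference of TMM-scaled CPM, culm minus sulcus (vertical axis), in pairs 1 to 3 for each tested unigene (lines) and the list median (diamonds) in 4 lists. The antenna median moves from −2.77 to −0.37, while that of the Photosynthesis entry is −2.36 in pair 1 and −1.92 in pair 3.

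Other nuclear genes for chloroplast proteins were mixed. CAS, the calcium sensing receptor of the thylakoid, had log2 differences of −1.62, −1.28 and −0.96 in pairs 1, 2 and 3. Those of CSP41a, a chloroplast RNA-binding protein, were −2.36, −1.83 and −0.50. The unigene for a high-light-induced protein went the other way, with 1.50, 1.01 and 0.88, as did VDE, violaxanthin de-epoxidase of the xanthophyll cycle, with 2.30, 0.83 and 1.05. The difference was smallest in size in pair 3 for 3 of these 4 unigenes, all but VDE, against the same 40.2%. These too came from the study's list for this contrast.

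The tissue labels and the lignifying cells that a bulk sample could hold were looked at through lists. The summed CPM of the Photosynthesis entry was 166, 154 and 239 in sulcus replicates 1, 2 and 3 and 26.4, 25.5 and 41.9 in culm replicates 1, 2 and 3, and none of the 8 was at 0 in any library. The largest part in the sulcus was psbM, with 71.1, 65.7 and 139 CPM in replicates 1, 2 and 3. Its rise made up most of the higher sum of sulcus replicate 3. From sulcus replicate 1 to 3, atpA went from 23.0 to 26.0 CPM, psaA from 11.6 to 7.51 and psbK from 17.6 to 12.5. Since the study took that list from this contrast, it is no independent check of the labels. The 5 unigenes of lignin precursor synthesis (CAD, CCR, CCoAOMT, F5H and HCT) summed to 389.9, 758 and 2113 CPM in sulcus replicates 1, 2 and 3 and to 347, 706 and 2024 in culm replicates 1, 2 and 3. None of these 5 was at 0 in any library. Their sum was lowest in replicate 1 of each tissue, where the antenna difference was widest, and highest in replicate 3, where it was narrowest. Most of it was F5H, with 149 CPM in sulcus replicate 1 and 1595 in sulcus replicate 3, and HCT, with 156 and 419. CCoAOMT went the other way, with 12.4 CPM in sulcus replicate 1 and 4.65 in sulcus replicate 3, and 12.9 and 5.24 in the same culm replicates. CAD lay between 52.8 and 70.2 CPM in all 6 libraries. CCR had 7.31, 17.2 and 25.2 CPM in sulcus replicates 1, 2 and 3, but in the culm replicate 2 was highest, with 3.92, 18.1 and 12.8. Differences between replicate numbers were common, since edgeR called 30.3% of all tested unigenes between them. The part of these genes in the antenna levels was not tested.

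The unigenes whose pattern was most like the mean log2 CPM of LHCB1 and PvLhcb1.2 were ranked by Pearson's r over the 6 libraries. First of all tested unigenes was PvLhcb1.1 (r = 0.999), which may share reads with LHCB1 and PvLhcb1.2. The next 4 had r between 0.980 and 0.993 and no name in the study's annotation table. Of these, Cluster-4806.21254 had 4252, 4208 and 3126 counts in the sulcus and 2142, 2323 and 3743 in the culm, with log2 differences of −1.22, −0.81 and −0.077 in pairs 1, 2 and 3. Its smaller difference also narrowed in pair 3, which follows from the ranking by likeness and is no separate support. PvLhcb2 ranked 16 (r = 0.965), psaA 33 (r = 0.947) and psbK 34 (r = 0.945), while psbA, the D1 protein of photosystem II, ranked 2519 (r = 0.548). VDE (r = −0.903) and the high-light-induced protein (r = −0.809) ran opposite. With 6 libraries in same-numbered pairs these r values are descriptions and rank the unigenes only.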

How the data were processed

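Per the study's methods, reads were quality-filtered, assembled de novo with Trinity and grouped into unigenes with Corset. The authors deposited estimated counts per unigene with no normalization. Not given in the sources used here is the counting program, and the submitters' processing notes name DESeq, where the study's methods name DESeq2. Depth was 16405396 to 22505338 counts per library, and intervals cover counting error only.

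CPM is the deposited count over the column sum. For tests, counts were rounded and kept by filterByExpr (minimum count 10), with TMM factors of 0.949 to 1.05, in R 4.3.3 with edgeR 4.0.16 and DESeq2 1.42.0. The quasi-likelihood test of edgeR, adjusted by Benjamini-Hochberg, compared tissues (no block) and, with tissue as a term, replicate numbers; the standard error is the log2 fold change over the square root of F. The log2 CPM used for spans, lists and likeness had a prior count of 2. Tests were tried on simulated data. P-values weigh a difference against the spread between these libraries. Without the block, the spread within a tissue includes the differences between replicate numbers. The test between replicate numbers was planned for the 2 antenna unigenes too, but is given only over all unigenes, since their choice also bears on it.

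Same-numbered libraries deviated from their tissue means together (r = 0.713, 0.620 and 0.798 for numbers 1, 2 and 3, other pairs −0.632 to −0.0750). Deviations cancel out over the libraries of a tissue, so positive values for same numbers make the others negative on average. The negative values are therefore no separate support. From the r of same numbers, and not from the labels, the numbers were taken to pair the libraries.

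The unigenes, lists and tests were chosen with earlier results of these data known. Named unigenes were the 2 antenna unigenes, those of the study's antenna and Photosynthesis entries, its other plastid and 4 nuclear chloroplast unigenes, 5 lignin precursor unigenes and the 5 most alike in pattern, of which at most 2 unnamed are printed. Of the 30 unigenes in the lists 29 were tested, and 1 further unigene of the lignin list is not reported here. The study's metabolite, pigment and qRT-PCR values were not used.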

Additional observations from a re-analysis of the deposited data

How the results depend on the processing

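LHCB1, PvLhcb1.2 and their sum were lower in the culm under every alternative run (RLE factors, no TMM factor, no filter, a minimum count of 30, no 20 most abundant unigenes, unrounded counts, DESeq2, the replicate block and each library left out). With 1 library left out, the log2 fold change lay between −2.63 and −1.67 for LHCB1, between −2.15 and −1.51 for PvLhcb1.2 and between −2.17 and −1.52 for the sum. In fits added after the data were seen, without both libraries numbered 3 it was −2.94 for LHCB1 and −2.36 for PvLhcb1.2, and without both numbered 1 it was −1.39 and −1.31. In pair 2, TMM and RLE moved the log2 ratio of PvLhcb1.2 from −1.96 to −1.87 each and that of the sum from −1.99 to −1.91 each, past the counting interval.

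The count of unigenes called between tissues, 0, was 41 with the replicate block in edgeR, 28 with DESeq2, 2 without a filter and 0 with any 1 library left out. The count called between replicate numbers, 9665, ranged over the fits with 1 library left out from 6263, where culm replicate 2 was dropped, to 13206, where sulcus replicate 1 was, with 6408 for sulcus replicate 2. With 3 libraries a tissue and counts from 73 for LHCB1, the spread between replicates, not counting error, set the standard errors.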
